A study of Homo sapiens with 6 samples.

Results

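The 40 genes described here encode enzymes that place methyl groups on the lysines of histones or take them off. They comprise 26 methyltransferases, or writers, and 14 demethylases, or erasers. They were chosen by RefSeq symbol and make up 40 of the 20050 coding genes of the GRCh38 table used. N6-methyladenosine (m6A), the commonest internal base modification of messenger RNA, had been mapped in U-251 MG cells, an established human glioblastoma line. The method was methylated RNA immunoprecipitation sequencing, in which RNA fragments bound by an antibody against m6A are sequenced beside unselected input RNA. All 3 groups were the same line carrying a short hairpin: shNC, a control hairpin, shTRA2A, against the splicing regulator TRA2A, and shMETTL3, against METTL3, the catalytic subunit of the main m6A writer. Each group had 1 immunoprecipitated and 1 input library and is represented by 1 peak list. Nothing below has a check by replicates, and the groups were not tested against each other. The labels give neither the hairpin sequences, nor the time after knockdown, nor whether the cells were a clone.

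Histone lysine methylation is set by SET-domain enzymes (and the unrelated DOT1L) and reversed by amine oxidases of the KDM1 family or by JmjC-domain demethylases. Methylation of H3K4 and H3K36 marks active genes, while methylation of H3K27 and H3K9 marks repressed ones. In gliomas, mutations of histone H3 itself, or of the metabolic enzymes whose product inhibits JmjC demethylases, disturb this system. On messenger RNA, m6A tends to lie in long internal exons and around stop codons.

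The control list held 9206 peaks, the shTRA2A list 2736 and the shMETTL3 list 5433, of which 8537, 2519 and 5026 were assigned to coding genes. Each peak carries a score from the authors' peak caller whose scale is not stated, so a score ranks peaks within a list and is not compared between lists. The score medians were 12.4, 8.0 and 8.40. The targeted genes could not check the labels, because the lists hold no expression levels: METTL3 had no peak in any list and TRA2A had 1 peak, in the shTRA2A list. For the same reason the cell line was not checked against its markers. Fewer cells that express a gene, fewer transcripts per cell, less methylation of each transcript and a shallower library cannot be told apart when a peak is missing. Read depth per library was not stated in the sources used. Shares below carry exact Clopper-Pearson 95% intervals that treat peaks or genes as independent and cover counting error only, and amplified reads are not independent molecules.

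Transcripts of the histone methylation enzymes carried m6A peaks more often than those of coding genes as a whole. In shNC, 28 of the 40 genes had at least 1 peak (70.0%, 53.5 to 83.4), against 20% of all coding genes. In shTRA2A, 15 had a peak (37.5%, 22.7 to 54.2), against 8.86%. In shMETTL3, 27 had a peak (67.5%, 50.9 to 81.4), against 15.6%. These backgrounds count every coding gene, expressed in these cells or not, because the lists hold no expression levels. The 40 genes were also chosen with earlier results of these data known. They held 105 control peaks, 18 shTRA2A peaks and 75 shMETTL3 peaks, which is 1.23%, 0.715% and 1.49% of the peaks assigned to coding genes in those lists.

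These are long genes, with a median body of 78.7 kb against 24.1 kb for all coding genes, and longer bodies held peaks more often in general. Of the 2 enzymes with bodies under 20 kb none had a control peak, against 11.8% of coding genes of that length. Among bodies of 20 to 50 kb, 8 of 9 of the enzymes had a control peak, against 23.1% of coding genes of that length. Among bodies of 50 to 100 kb the count was 8 of 14, against 27.7%, and among longer bodies 12 of 15, against 30.8%. KDM4C, with the longest body at 455 kb, had no peak in any list, and KDM6B, with 20.6 kb, had 3 in the control. The part of body length in these shares was not tested.

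A total of 14 genes had peaks in all 3 lists: KMT2A, KMT2B, KMT2C, KMT2D, SETD1B, SETD2, SETDB1, NSD1, NSD3, ASH1L, PRDM2, JMJD1C, KDM5A and KDM6B. A further 9 had peaks in shNC and shMETTL3: KMT2E, SETD1A, SETD5, NSD2, EHMT1, KMT5B, KDM2A, KDM3B and KDM5B. None had peaks in shNC and shTRA2A and not in shMETTL3. Peaks in shNC alone were found for 5 genes (EZH2, SUV39H2, KMT5A, KDM3A and KDM7A), in shMETTL3 alone for 4 (SETDB2, EHMT2, KDM4A and KDM4B) and in shTRA2A alone for EZH1. The 7 genes with no assigned peak were SETD7, SUV39H1, DOT1L, KDM1A, KDM1B, KDM2B and KDM4C.

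**Figure D1:**
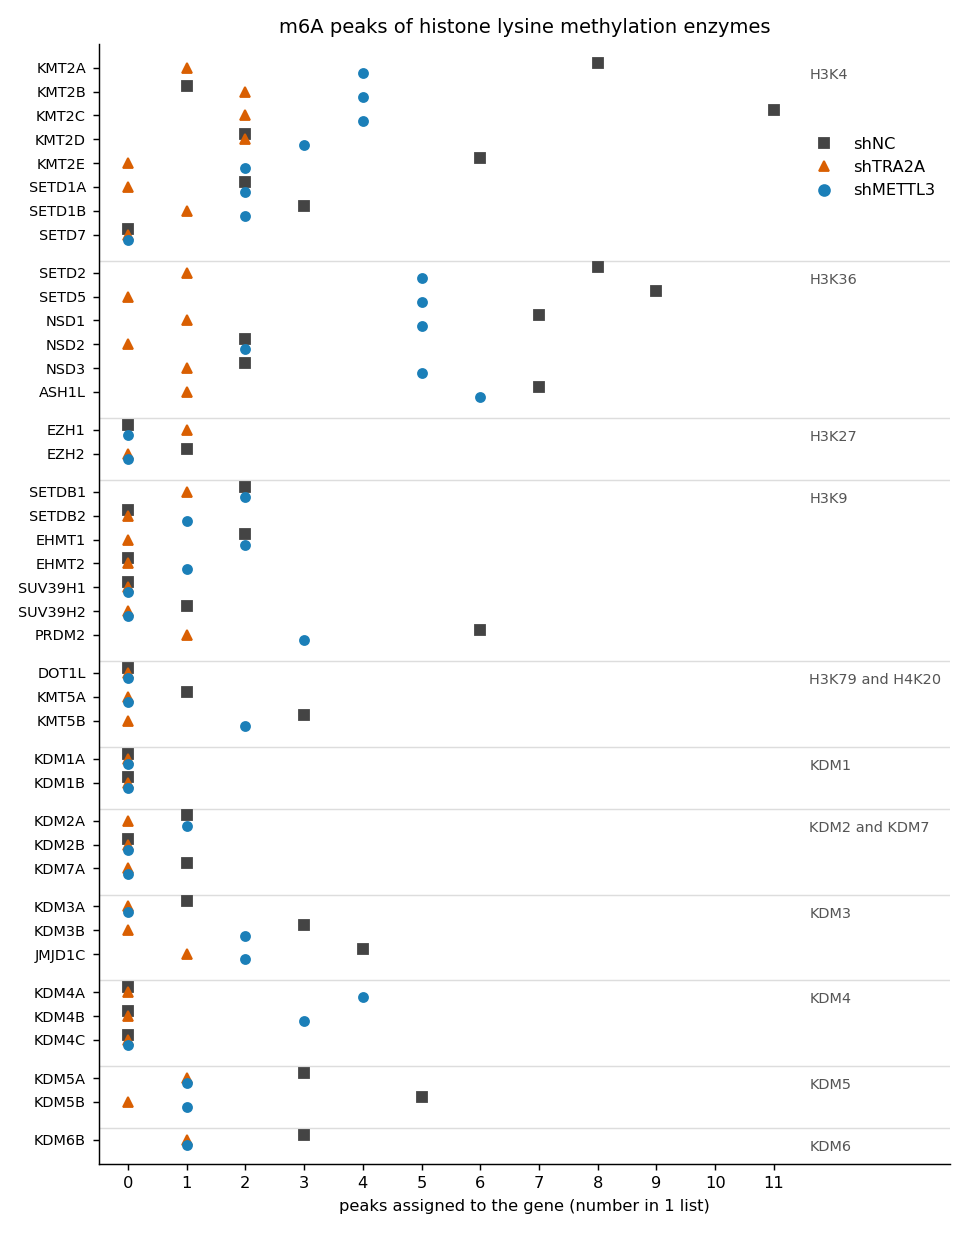
Number of m6A peaks assigned to each of the 40 genes in the shNC, shTRA2A and shMETTL3 lists (1 list per condition), grouped by the enzymes' roles. KMT2C has the most control peaks, 11, and its counts in the knockdown lists are 2 and 4; KDM4A and KDM4B have peaks in shMETTL3 alone.

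The peaks of the control were recovered unevenly in the knockdown lists. Of the 28 genes with a control peak, 14 also had a peak in shTRA2A (50%, 30.6 to 69.4; all such coding genes 29.1%) and 23 in shMETTL3 (82.1%, 63.1 to 93.9; all 47.8%). With every list limited to its 2736 best-scoring peaks 14 of the enzymes had a control peak, and 8 and 10 of them a peak in shTRA2A and shMETTL3. Keeping the better-scoring 50% of every list gave 4 and 12 of 19. A control peak counts as found again if the span of a knockdown peak shares at least 1 base with its own on the same strand. The span runs from the first to the last base of a peak, gaps between its listed blocks included. Widths given here are those of the span. An overlap that involves a peak of several blocks therefore need not be an overlap of blocks. By that rule, 7 of the 28 genes had a control peak found again in shTRA2A (25%, 10.7 to 44.9; all 16.0%) and 13 in shMETTL3 (46.4%, 27.5 to 66.1; all 28.3%).

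Counted by peak, 7 of 105 control peaks were overlapped in shTRA2A (6.67%, 2.72 to 13.3), near the 9.65% of all control peaks in coding genes. In shMETTL3, 28 were overlapped (26.7%, 18.5 to 36.2), against 18.0%. Shortening the shMETTL3 list to its 2736 best-scoring peaks, a setting added after the data were seen, left 17 (16.2%, 9.72 to 24.7). The share over all coding genes with the shortened list is not given, and the 18.0% belongs to the whole list. With midpoints within 100 nt as the rule, 4 control peaks were matched in shTRA2A in place of 7. Both knockdown lists recovered 5 control peaks (4.76%, 1.56 to 10.8; all 5.08%).

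Seen from the knockdown lists, 7 of 18 shTRA2A peaks lay on a control peak (38.9%, 17.3 to 64.3; all 34.6%), and 31 of 75 shMETTL3 peaks did (41.3%, 30.1 to 53.3; all 33.1%). Of the 18 shTRA2A peaks, 6 lay on an shMETTL3 peak (33.3%; all 23.9%). Those overlaps involved 6 of the 75 shMETTL3 peaks (8.0%; all 11.8%). Both knockdown lists are compared with the same control list, so their overlaps with it are given side by side and not set against each other.

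**Figure D2:**
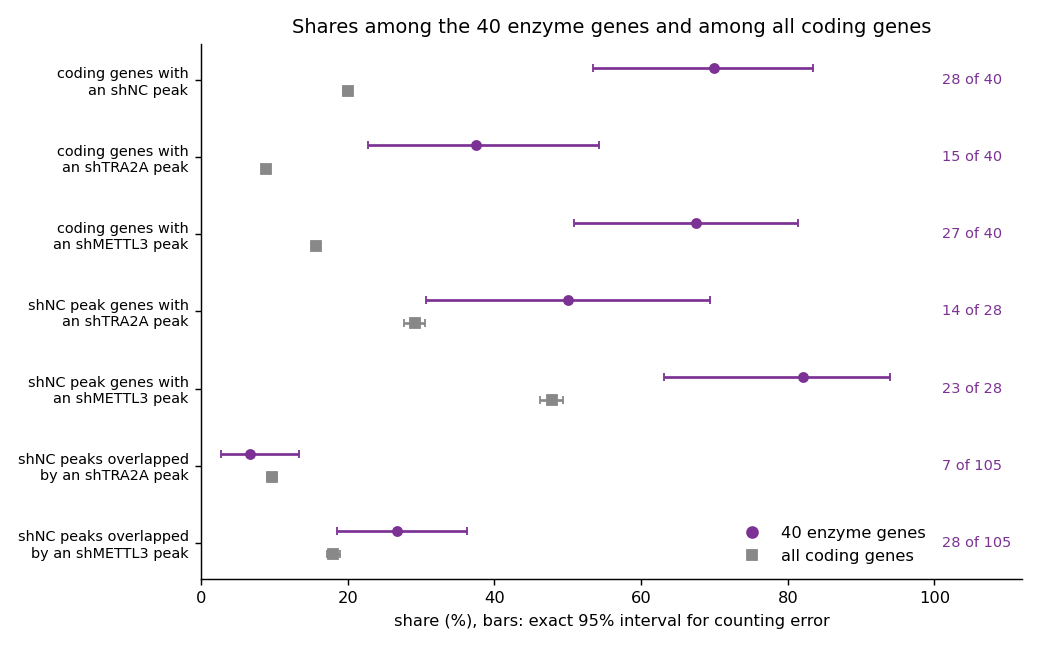
Percent of genes or peaks for the histone methylation enzymes and for all coding genes, with exact 95% intervals for counting error. The enzymes stand above all coding genes for having a peak in each list, while the share of control peaks overlapped in shTRA2A is 6.67% against 9.65%.

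The H3K4 writers held 33 control peaks in 7 of 8 genes, 8 shTRA2A peaks in 5 genes and 21 shMETTL3 peaks in 7. Of the 33 control peaks, 7 were overlapped in shMETTL3 (21.2%, 8.98 to 38.9; all 18.0%) and 0 in shTRA2A, whose interval reaches up to 10.6% and so includes the 9.65% of all control peaks. All 8 shTRA2A peaks of these genes therefore lay away from their control peaks. SETD7, a mono-methyltransferase, had no peak.

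KMT2C, which with KMT2D places H3K4 mono-methylation at enhancers, had 11 control peaks, 2 in shTRA2A and 4 in shMETTL3. Its strongest control peak was the 725 nt peak at 7:152176743-152177467 (score 52.3), and a 125 nt shMETTL3 peak at 7:152177243-152177367 lay inside it. The next, at 7:152162142-152162316 (175 nt, score 40.1), lay at an end of a run of 5 control peaks in 1650 nt and was overlapped in neither list. The peak at the other end of that run, 7:152163742-152163791, was touched by a 3544 nt shMETTL3 peak. Its control peak at 7:152248049-152248398 (score 31.3) held an shMETTL3 peak at 7:152248124-152248348. The 2 shTRA2A peaks, 4996 nt and 50 nt wide, lay 3672 and 27456 nt from the nearest control peak. KMT2D had 2 control, 2 shTRA2A and 3 shMETTL3 peaks, and none of the knockdown peaks came closer than 4116 nt to a control peak.

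KMT2A (MLL1), rearranged in acute leukaemias, had 8 control peaks, 1 shTRA2A peak and 4 shMETTL3 peaks. All 4 shMETTL3 peaks lay on control peaks. Of these, 2 touched the strongest control peak, 11:118471694-118472018 (score 30.5), at 11:118471794-118471968 and 11:118471994-118472093, and another had the same bounds as the control peak at 11:118473969-118474018. The shTRA2A peak at 11:118502430-118502504 lay 751 nt from the nearest control peak. KMT2B, its close paralogue, had more peaks in the knockdown lists, with counts of 1, 2 and 4. Its knockdown peaks lay 126 to 1476 nt from its control peak, which had a score of 9.09. A 200 nt shTRA2A peak at 19:35720302-35720501 lay inside a 250 nt shMETTL3 peak at 19:35720277-35720526.

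KMT2E (MLL5), a relative of these enzymes with little or no methyltransferase activity of its own, had 6 control peaks, 0 in shTRA2A and 2 in shMETTL3. The strongest, 7:105112121-105112545 (425 nt, score 41.5), lay 97.3% of the way along the body and held a 150 nt shMETTL3 peak at 7:105112196-105112345. SETD1A and SETD1B, the catalytic subunits of the main H3K4 tri-methylation complexes, had 2, 0 and 2 and 3, 1 and 2 peaks. None of their control peaks was overlapped in a knockdown list, although an shMETTL3 peak of SETD1A lay 51 nt from a control peak.

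The H3K36 group held 35 control peaks in all 6 of its genes, 4 shTRA2A peaks in 4 genes and 28 shMETTL3 peaks in 6. Here 4 control peaks were overlapped in shTRA2A (11.4%, 3.20 to 26.7; all 9.65%) and 13 in shMETTL3 (37.1%, 21.5 to 55.1; all 18.0%). All 4 shTRA2A peaks of the group lay on control peaks. The intervals of this group and of the H3K4 writers overlap for both knockdown lists, and the difference between the groups was not tested.

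NSD1, an H3K36 di-methyltransferase mutated in Sotos syndrome, had 7, 1 and 5 peaks. The strongest, 5:177135394-177135993 (600 nt, score 64.6), also led the regular control peaks of the 40 genes, where regular means 1 block, at most 1000 nt and a multiple of 25 nt wide. That peak lay 2.31% of the way along the body and overlapped an shMETTL3 peak at 5:177135544-177135968. The peak at 5:177211667-177211841 was found in all 3 lists, with scores of 16.5, 11.9 and 10.1. The 3 control peaks in 5:177295148-177295547, near the 3′ end, were overlapped in neither knockdown list.

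NSD3, a paralogue of NSD1, had 2, 1 and 5 peaks. Its control peak at 8:38347577-38348001 (425 nt, score 47.2) was found in all 3 lists. In shTRA2A it was represented by the 50 nt peak at 8:38347627-38347676, and in shMETTL3 by 3 peaks of 100, 75 and 50 nt that lay inside it. The other 2 shMETTL3 peaks, 1177 and 943 nt wide, lay far from any control peak, at 91.8% and 0.939% of the body. NSD2, which drives a subset of myelomas, had 2, 0 and 2 peaks with no overlap. Its 50 nt shMETTL3 peak at 4:1939690-1939739 (score 29.8, rank 77 of 5433) lay 36904 nt from the nearest control peak.

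ASH1L, an H3K36 methyltransferase and trithorax-group protein, had 7, 1 and 6 peaks. The strongest, 1:155481567-155482191 (625 nt, score 62.6), was overlapped by 2 shMETTL3 peaks, 1:155481667-155482091 and 1:155482167-155482266. The control peak at 1:155521185-155521534 (score 36.1) was found in all 3 lists. Its shTRA2A counterpart at 1:155521160-155521534 was the strongest shTRA2A peak of the 40 genes, with a score of 20.6 and rank 29 of 2736.

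SETD2, the H3K36 tri-methyltransferase and a tumour suppressor in kidney cancer, had 8, 1 and 5 peaks. Its best control peak, 3:47084049-47084298 (score 26.0), held the shMETTL3 peak at 3:47084074-47084198. A run of 4 control peaks spanned 1600 nt from 3:47120379-47120553 (score 25.3), and 2 of the 4 were overlapped in shMETTL3. The control peak at 3:47123004-47123228 (score 17.8) was found in shTRA2A alone, where a 50 nt peak at 3:47123154-47123203 lay inside it. SETD5, a SET-domain protein mutated in intellectual disability whose enzymatic activity is debated, had 9, 0 and 5 peaks. Its strongest control peak, 3:9475917-9476366 (450 nt, score 35.6), was overlapped in neither list. Of its other control peaks, 4 were overlapped in shMETTL3, among them the 392 nt peak at 3:9475225-9475616 (score 22.1).

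**Figure D3:**
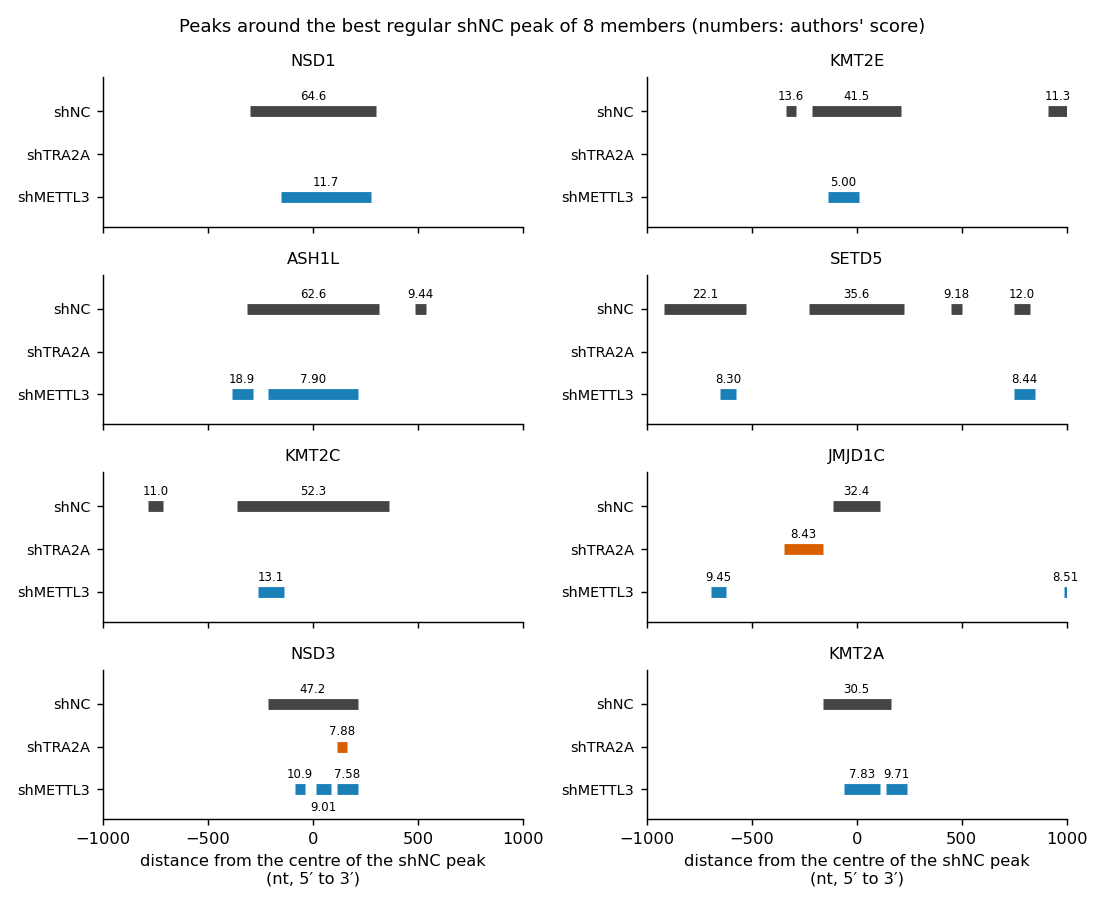
Peaks of the 3 lists within 1000 nt of the strongest regular control peak of 8 genes, drawn 5′ to 3′ by distance in nt from that peak's centre, with each peak's score printed beside it. Of the 8 central peaks, 6 are overlapped in shMETTL3 and 1, that of NSD3, in shTRA2A.

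The 2 H3K27 writers held 1 control peak, 1 shTRA2A peak and 0 shMETTL3 peaks. These are too few genes to set against the shares over all coding genes. EZH2, the catalytic subunit of Polycomb repressive complex PRC2 in dividing cells, had 1 control peak, 985 nt wide with a score of 17.8, and none in either knockdown list. EZH1, its paralogue, had 0, 1 and 0 peaks. The shTRA2A peak at 17:42718615-42719151 was 537 nt wide with a score of 7.70.

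The H3K9 writers held 11 control peaks in 4 of 7 genes, 2 shTRA2A peaks and 9 shMETTL3 peaks. Of the control peaks, 1 was overlapped in shTRA2A (9.09%, 0.230 to 41.3; all 9.65%) and 3 in shMETTL3 (27.3%, 6.02 to 61.0; all 18.0%). Both intervals include the shares over all coding genes. PRDM2 (RIZ), a PR-domain methyltransferase, held 6 of the 11, and had 1 and 3 peaks in the knockdown lists. All the overlapped control peaks of the group were its own. The peak at 1:13778614-13778738 (125 nt, score 13.9) was found in all 3 lists, as a 50 nt shTRA2A peak at 1:13778614-13778663 and a 250 nt shMETTL3 peak at 1:13778489-13778738. A 1013 nt peak at 1:13772205-13773217 recurred in shMETTL3 with the same width, displaced by 25 nt, at 1:13772180-13773192.

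SETDB1, which silences retroelements with TRIM28, had 2, 1 and 2 peaks and no overlap, and EHMT1 (GLP) had 2, 0 and 2. The 50 nt shMETTL3 peak of EHMT1 at 9:137743910-137743959 lay 51 nt from a control peak. EHMT2 (G9a), the partner of EHMT1, had 0, 0 and 1 peaks, the 50 nt shMETTL3 peak at 6:31892439-31892488 (score 7.57). SETDB2 also had 0, 0 and 1, a 3857 nt shMETTL3 peak at 13:49464046-49467902 with a score of 24.9. SUV39H2 had 1 control peak alone and SUV39H1 none. Both are classical heterochromatin enzymes.

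Of the writers of other sites, KMT5B, which di- and tri-methylates H4K20, had 3, 0 and 2 peaks. The best control peak, 11:68157988-68158362 (375 nt, score 28.4), held a 100 nt shMETTL3 peak at 11:68158013-68158112. KMT5A, the H4K20 mono-methyltransferase, had 1 control peak of 2468 nt. DOT1L, the H3K79 methyltransferase, had no assigned peak.

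The 14 demethylases held 21 control peaks in 8 genes, 3 shTRA2A peaks in 3 genes and 15 shMETTL3 peaks in 8. Of the control peaks, 2 were overlapped in shTRA2A (9.52%, 1.17 to 30.4; all 9.65%) and 4 in shMETTL3 (19.0%, 5.45 to 41.9; all 18.0%), both near the shares over all coding genes. For the 84 control peaks of the 26 writers the counts were 5 (5.95%, 1.96 to 13.3) and 24 (28.6%, 19.2 to 39.5). These intervals overlap, and the difference between writers and demethylases was not tested.

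KDM1A (LSD1) and KDM1B, the flavin-dependent demethylases, had no peak in any list. KDM2A, an H3K36 demethylase that binds unmethylated CpG islands, had 1, 0 and 1 peaks, 176 nt apart near the 3′ end at 99.2% and 99.4% of the body. KDM7A had 1 control peak alone and KDM2B no assigned peak.

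In the KDM3 family of H3K9 demethylases, KDM3A had 1, 0 and 0 peaks. Its control peak, 2:86464186-86466790, was 2605 nt wide with a score of 36.1. KDM3B had 3, 0 and 2 peaks. Its strongest control peak, 5:138381725-138386147 (4423 nt, score 23.2), was touched at its 3′ edge by an shMETTL3 peak at 5:138386098-138386272. The 100 nt control peak at 5:138391214-138391313 overlapped an shMETTL3 peak at 5:138391139-138391238. JMJD1C had 4, 1 and 2 peaks and no overlap. Its strongest control peak, 10:63214832-63215056 (225 nt, score 32.4), lay 51 nt from the shTRA2A peak at 10:63215107-63215292 and 509 nt from the shMETTL3 peak at 10:63215565-63215639.

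The KDM4 family of H3K9 and H3K36 demethylases had 0 control peaks, 0 shTRA2A peaks and 7 shMETTL3 peaks. KDM4A held 4 of these, with scores from 6.22 to 7.78, and KDM4B held 3, at 19:5080900-5082419, 19:5111798-5111872 and 19:5119733-5119832, with scores from 6.98 to 10.9. A pair of the KDM4A peaks, 1:43704476-43704550 and 1:43704472-43704546, were both 75 nt wide and lay on opposite strands, displaced by 4 nt. The others were at 1:43653749-43653798 and 1:43665720-43666333. Among the 12 genes with no control peak, 4 had an shMETTL3 peak (33.3%, 9.92 to 65.1; all such coding genes 7.64%) and 1 an shTRA2A peak (8.33%, 0.211 to 38.5; all 3.81%).

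KDM5A, an H3K4 demethylase first found as a partner of the retinoblastoma protein, had 3, 1 and 1 peaks. It held the strongest control peak of the 40 genes, 12:292846-295648 (2803 nt, score 67.2), found in both knockdown lists as peaks that shared 1 edge, 12:292921-293070 in shTRA2A and 12:292921-293120 in shMETTL3. Its second control peak, 12:307928-310969 (3042 nt, score 47.1), had the highest score among the control peaks found in neither. KDM5B, a related enzyme, had 5, 0 and 1 peaks. Its 5 control peaks, 50 to 75 nt wide, lay within 1125 nt at 1:202728945-202730069, and the shMETTL3 peak at 1:202727995-202728044 (score 24.5) lay 901 nt from them. KDM6B (JMJD3), an H3K27 demethylase, had 3, 1 and 1 peaks. The best control peak, 17:7848355-7848579 (score 14.8), overlapped the shTRA2A peak at 17:7848555-7848654, and its control peak at 17:7849180-7849254 held the shMETTL3 peak at 17:7849205-7849254.

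The 105 control peaks had a median score of 13.2 and a median width of 150 nt, against 12.5 and 125 nt over all coding genes. The 5 peaks found in both knockdown lists had a median score of 36.1, the 23 found in shMETTL3 alone 23.2, the 2 found in shTRA2A alone 16.3 and the 75 found in neither 12. Over all coding genes the medians were 33.3, 17.9, 18.0 and 11.5. With control scores cut into 5 equal classes, 16 of 23 peaks of the enzymes in the best class were overlapped in shMETTL3 (69.6%, 47.1 to 86.8; all 44.8%) and 3 in shTRA2A (13.0%, 2.78 to 33.6; all 28.6%). In the 2 lowest classes, 0 of 17 and 0 of 16 were overlapped in either list, where the shares over all coding genes were also low, at most 3.35% in shTRA2A and 7.47% in shMETTL3.

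**Figure D4:**
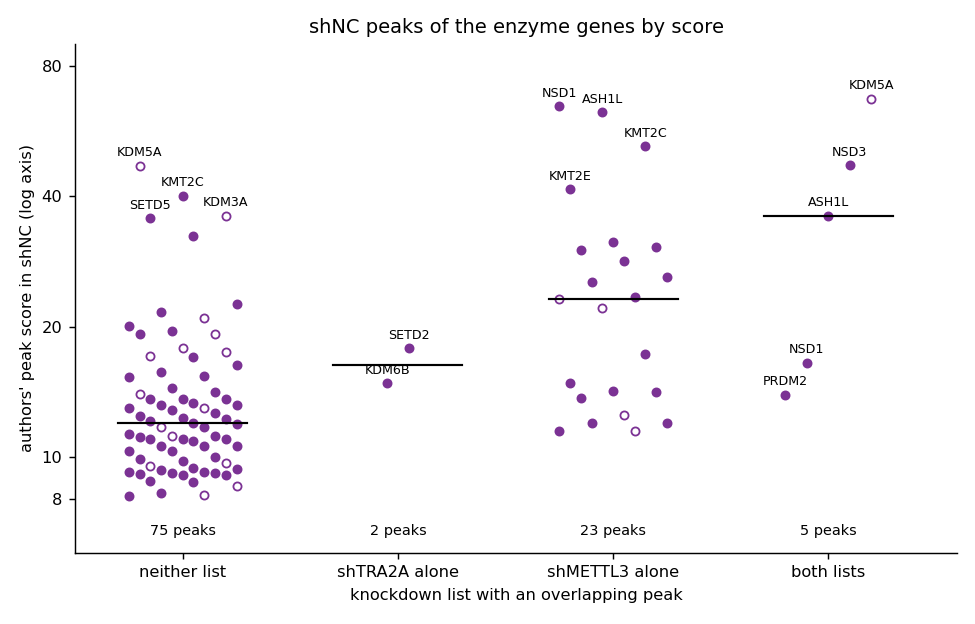
Score (log axis, units as the authors' caller gave them) of the 105 control peaks, split by the knockdown lists in which each was found, with bars at the medians. The medians are 36.1, 23.2, 16.3 and 12 for peaks found in both lists, in shMETTL3 alone, in shTRA2A alone and in neither.

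Width followed the same order. Of 40 control peaks over 200 nt, 17 were overlapped in shMETTL3 (42.5%, 27 to 59.1; all 29.7%), and of 37 peaks of at most 75 nt, 5 were (13.5%, 4.54 to 28.8; all 7.95%). A wider peak also offers more bases to overlap. Of the 105 control peaks 20 were not regular. With regular peaks alone in all lists, 6 of 85 were overlapped in shTRA2A (7.06%) and 22 in shMETTL3 (25.9%), with no like share over all coding genes given. Of the 33 overlapping pairs with shMETTL3, the knockdown peak was the narrower in 22 (66.7%; all 67.9%), and 19 lay wholly inside the control peak (57.6%; all 62.3%). The shTRA2A peak was the narrower in 5 of 7 pairs (71.4%; all 70.1%).

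Genes with several control peaks more often had a knockdown peak anywhere in the body, as over all coding genes. All 10 of the enzymes with 4 or more control peaks had a peak in shMETTL3 (all such coding genes 77.2%) and 7 had one in shTRA2A (all 52.8%). A control peak was overlapped in 8 of the 10 in shMETTL3 (all 61.8%) and in 4 in shTRA2A (all 38.1%). Of the 7 with a single control peak, 2 had a peak in shMETTL3 (all 36.5%) and 1 in shTRA2A (all 20.4%). The control peak was overlapped in 0 of the 7 in either list, with an interval up to 41.0%, against 15.7% and 7.89% of all such genes.

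The control peaks leaned to the 3′ side of the gene bodies, with a smaller share in the last part than over coding genes with a known strand. With each body cut into 3 equal parts from its 5′ end, 12.4%, 35.2% and 52.4% of the 105 control peaks had their midpoints in the first, middle and last part, against 17.1%, 20.5% and 62.4% over the 7198 control peaks in coding genes whose strand RefSeq gives. The 105 include the peaks of SETD1B and NSD3, placed by the strand of the peaks. The intervals were 26.2 to 45.2 for the middle part and 42.4 to 62.2 for the last part. They take peaks as independent, although many lie close together in the same genes. They therefore cannot decide whether the shares differ from 20.5% and 62.4%, and the difference was not tested. Bodies include introns, and exons were not available in the table used, so a part of the body is no part of the transcript. In shMETTL3 the shares were 25.3%, 30.7% and 44.0% of 75 peaks (all 20.8%, 23.7% and 55.5%), and in shTRA2A 33.3%, 16.7% and 50% of 18 (all 21.3%, 24.0% and 54.7%). All control peaks of KMT5B, KDM5B and JMJD1C and 10 of the 11 of KMT2C lay in the last part, while those of SETD2 and ASH1L lay mostly in the first 2.

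**Figure D5:**
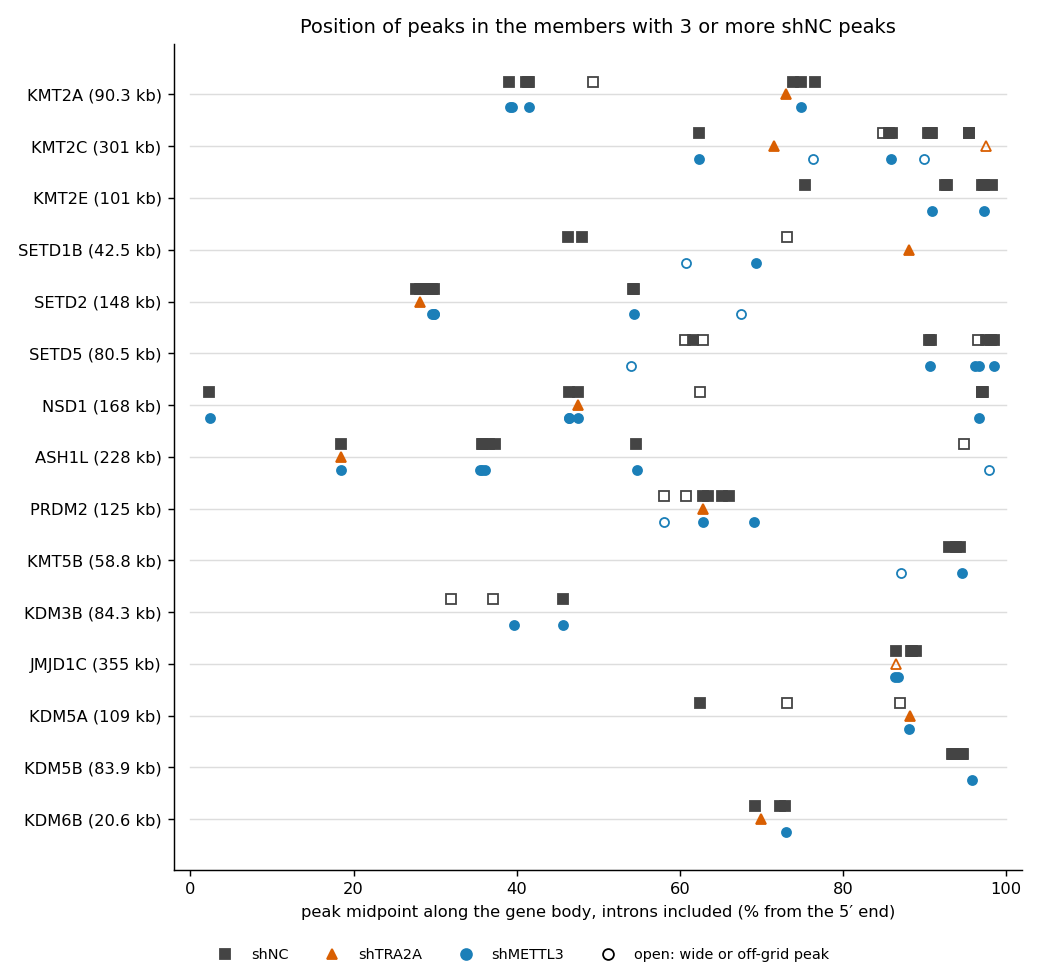
Position of each peak of the 3 lists along the gene body, in percent from the 5′ end, for the 15 genes with at least 3 control peaks. Open symbols mark peaks that are not regular. The 5 control peaks of KDM5B lie between 93.4% and 94.7%, whereas the control peaks of ASH1L run from 18.4% to 94.8%.

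Control peaks also came in runs. Among genes with several, 64 of 98 control peaks had another within 1000 nt (65.3%, 55.0 to 74.6; all 71.4%). Within 2000 nt, KMT2C had 5 of its 11, KDM5B all 5, SETD5 and SETD2 4 each, and KMT5B and KDM6B all 3. Of 66 shMETTL3 peaks in genes with a control peak, 44 lay on one or within 500 nt (66.7%, 54.0 to 77.8; all 66.2%), and of 17 shTRA2A peaks 9 did (52.9%, 27.8 to 77.0; all 65.5%). Most of these lay on a control peak: of the knockdown peaks that missed, 13 of 35 in shMETTL3 (37.1%) and 2 of 10 in shTRA2A lay within 500 nt. For the 37 genes with a RefSeq start window, the smallest gap between the window and any of their 184 peaks was 1209 nt, for NSD1. NSD3 is not among the 37, and its shMETTL3 peak at 8:38380743-38381685 lay 0.939% of the way along the body.

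Some peaks over these genes could belong to a neighbour. A minus-strand peak of 4255 nt at 7:105111104-105115358 touched the 3′ ends of both KMT2E, which is on the plus strand, and SRPK2, a kinase of SR splicing proteins on the minus strand. It had the same bounds in all 3 lists, with scores of 133, 23.0 and 7.76, and was assigned to neither gene. It covers 3 of the KMT2E control peaks on the opposite strand, so counting overlaps on either strand gives 10 control peaks in shTRA2A and 30 in shMETTL3 in place of 7 and 28. A 3700 nt plus-strand peak at 17:7840588-7844287, inside KDM6B and assigned to the locus LOC124904106 within it, was present in both knockdown lists with identical bounds. DOT1L shared 2 control peaks and 1 shMETTL3 peak with PLEKHJ1, KDM2B shared 2 control peaks with RNF34, and SUV39H2 shared 1 with DCLRE1C.

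Partners of these enzymes, other members of their families and readers of methylated lysines, 103 genes in 8 lists, were read the same way. Of the 103, 52 had a control peak, 32 an shTRA2A peak and 54 an shMETTL3 peak (50.5%, 31.1% and 52.4%; all coding genes 20%, 8.86% and 15.6%). They held 142, 51 and 95 peaks. Of the 142 control peaks, 23 were overlapped in shTRA2A (16.2%, 10.6 to 23.3; all 9.65%) and 33 in shMETTL3 (23.2%, 16.6 to 31.1; all 18.0%), and the counts of the single lists below are to be read against the same shares. No test sets these counts against those of the enzymes.

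Among 15 subunits of the COMPASS complexes, which house the H3K4 writers, 7 had control peaks and 5 of their 33 control peaks were overlapped in shTRA2A and 7 in shMETTL3. BOD1L1 alone held 17 of the 33, with 3 overlapped in each list, so the counts rest largely on 1 gene. NCOA6, a coactivator subunit, held the strongest (score 119) and PSIP1, the chromatin tether of KMT2A, the next (score 106). The control peaks of NCOA6 were overlapped in neither list, while 1 of the 2 of PSIP1 was overlapped in each. Among 11 subunits of PRC2 with EZH1 and EZH2, 5 had control peaks and 0 of their 13 peaks were overlapped in either list. LCOR alone held 9 of the 13 (best score 14.1), so the count rests mostly on 1 gene. The best were those of MTF2 (score 23.4), which recruits PRC2 to CpG islands, and of the core subunit SUZ12 (score 21.8).

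Of 11 partners of the H3K9 writers, 6 had control peaks, and 3 and 6 of their 21 control peaks were overlapped. TASOR, a subunit of the HUSH silencing complex, had the best control peak (score 62.0), and 1 and 2 of its 4 control peaks were overlapped in shTRA2A and shMETTL3. ZNF644, a zinc-finger partner of G9a, came next (score 41.5), with 1 and 0 of 4. Of 6 partners of DOT1L, 5 had control peaks, and 4 of their 11 control peaks were overlapped in each list, with AFF4 (score 33.1) and AFF1 (score 24.2), scaffolds of the super elongation complex, leading. AFF4 alone held 5 of the 11, with 3 overlapped in shTRA2A and 2 in shMETTL3. Of 11 partners of KDM1A, 6 had control peaks, and 1 of their 10 was overlapped in each list. ZMYM2, a zinc-finger protein of the complex, held the best (score 30.8).

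Of 28 readers of methylated lysine, 16 had control peaks, and 9 and 13 of their 44 control peaks were overlapped in shTRA2A and shMETTL3. ING2, an H3K4 reader of a histone deacetylase complex, had a single control peak (score 46.0), found in neither list, and MSH6, the mismatch repair protein that reads H3K36 methylation, had 3, 1 and 1 peaks (best score 42.9). Of 12 other lysine methyltransferases, 4 had control peaks, led by SETD6 (score 19.1) and SMYD4 (score 10.1). Of 9 other demethylases, 3 had control peaks, led by PHF2 (score 13.8) and KDM6A (score 13.3). For these last lists 1 and 1 of 6 and 0 and 1 of 4 control peaks were overlapped.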

How the data were processed

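RNA of U-251 MG cells was fragmented, immunoprecipitated and sequenced in pairs from a strand-aware library kit, per the labels' protocols. The build GRCh38 and the tools HISAT2 2.2.1, SAMtools and featureCounts 2.0.1 are listed, without their roles, per the submitters' processing notes. No peak caller or threshold was given in the sources used here. The authors deposited 12-column peak lists, 1 per condition, whose column 5 is the score the authors' caller gave each peak, used here to rank peaks within a list. A further list that matched no label equalled the shTRA2A list and was left out.

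Peaks were assigned to RefSeq gene bodies (GRCh38) they touch, taking, of several coding bodies, the one that holds the peak and lies inside the others. Strand came from RefSeq for 37 of the 40 genes and from the peaks for SETD1B and NSD3. None was set for DOT1L, which has no assigned peak. Python 3.11.15, numpy 2.4.6 and scipy 1.17.1 were used. Overlaps of spans were tested with simulated peaks, and differed from bedtools 2.31.1 for 0 control peaks. Both checks used spans, so they cannot tell whether blocks overlap. Coordinates count from 1. The handling of strand by the caller is not stated.

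The 40 genes and all lists were chosen with earlier results of these data known. Peaks are described for the 12 genes with the best control peak, the 5 with the most control peaks, those with a control peak found again and those with knockdown peaks alone, plus the 2 best-scoring genes of each partner list. For the KDM1A partners 1 of the 2 is not reported here. Ties were broken by width, then symbol. Positions, distances or widths given for other genes (KMT2B, KMT2D, SETD1A, NSD2, EZH2, EHMT1, KMT5A, KDM2A, KDM5B) were chosen after their values were seen. LCOR and BOD1L1 are named because each holds most control peaks of its partner list. Alternatives varied gene assignment, peak shape, score, list length, merging of peaks and the overlap rule. The assignment of genes to roles follows textbook knowledge. No genome sequence was used, so peak sequences are not shown.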

Additional observations from a re-analysis of the deposited data

Results flagged for a closer look

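NSD3 was flagged because its number of peaks moved in opposite directions in the 2 knockdowns: 2 peaks in shNC, 1 in shTRA2A and 5 in shMETTL3. No other of the enzymes did so. Of 5646 coding genes with a peak in any list, 246 (4.36%) moved in opposite directions. Such a move in NSD3 alone therefore does not set the enzymes apart from coding genes as a whole. The differences in the peak number of NSD3 were not tested, since each condition has 1 list. Of its 5 shMETTL3 peaks, 3 lie inside the control peak at 8:38347577-38348001, and the other 2 lie 50116 and 32742 nt from the nearest control peak. Neighbours among those 3 are less than 100 nt apart, so the count of 5 depends on how a peak is split.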

How the results depend on the processing

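Each count was recomputed under other choices. Of 63 alternative values for 8 counts, 44 stayed within 1.5 times the reported count. With the better-scoring 50% of each list, the control peaks of the enzymes numbered 59, and of the 19 genes with a control peak 4 had any peak in shTRA2A and 12 in shMETTL3. Then 3 control peaks were overlapped in shTRA2A and 14 in shMETTL3, by 3 and 16 knockdown peaks. With all lists limited to the length of the shortest, these genes numbered 8 and 10 of 14, the overlapped control peaks 4 and 12 (4 of 34, 11.8%, and 12 of 34, 35.3%), and the knockdown peaks on them 4 and 14. Requiring an overlap with a control peak left 7 and 13 genes. With midpoints within 100 nt, 4 control peaks and 4 shTRA2A peaks matched. With only the shMETTL3 list shortened, an alternative chosen after seeing the data, 17 control peaks and 19 shMETTL3 peaks overlapped. These settings use fewer peaks or a narrower match by construction. Shares over all coding genes under them are not given, so these counts have no like background. No paired analysis was possible because each condition has 1 list and no replicate. Read depth is not known here, so a peak missing from a list is a peak not called.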
